A study of Mus musculus with 6 samples.

Results

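The genes described here are 8 genes whose products serve the testis and the sperm: Slc25a31, Tuba3a, Tuba3b, Dazl, Brdt, Ldhc, Pgk2 and Tex101. They were selected by name from 21938 protein-coding genes, and the selection used their methylation in these libraries, Slc25a31 for keeping most of it in the mutant and Tuba3b for losing much of it. Differences between the groups at these genes are therefore given as a description, with no test of their own. How many of them a test over all genes called is given only as a count, from which nothing is read. A cytosine was used when each of the 6 libraries covered it with 6 or more reads. The promoter ran from -1000 to +500 bp around the 5' end of the gene in the annotation, and the rest of the gene was called the body. By this rule 147 of 646645 cytosines belonged to the 8 genes, 82 of them in promoters and 65 in bodies. Promoter cytosines were covered in 4 genes (Slc25a31, Tuba3a, Tuba3b and Dazl), body cytosines in 6 (Tuba3a, Tuba3b, Dazl, Brdt, Ldhc and Tex101), and none in Pgk2.

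The assay was Ox-RRBS, reduced representation bisulfite sequencing after an oxidation, of the full cortex of C57BL/6 mouse embryos at embryonic day 16 (E16). MspI, which cuts at CCGG, restricts the assay to CpG-rich fragments. The oxidation lets 5-hydroxymethylcytosine be read as unmethylated, so that the remaining signal is 5-methylcytosine. The cKO group (3 libraries) was Emx1 Cre/+ Uhrf1 -/- and the control group (3 libraries) was Emx1 Cre/+ Uhrf1 +/-, so that both groups carried Emx1-Cre and the controls had a single working copy of Uhrf1. Cre removed the floxed exon 4 of Uhrf1 in the dorsal telencephalon, while cells that enter the cortex from elsewhere, such as interneurons, microglia and vessel cells, keep the gene. Expression was not measured here, so neither the deletion nor the tissue was checked by marker genes in these libraries. The authors did report, from immunostaining at an earlier stage, that Uhrf1 was nearly absent from the cKO cortex. They also sequenced RNA of E16 cortex, which was not used here.

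Uhrf1 recognises hemimethylated CpGs after replication and brings the maintenance methyltransferase Dnmt1 to them. Many genes of the germline have CpG-rich promoters that are methylated in the soma, where this methylation helps to keep them silent. Dazl is an RNA-binding protein of germ cells, Brdt a bromodomain protein that reads acetylated histones during spermatogenesis, and Tuba3a and Tuba3b are alpha tubulins of the testis. Slc25a31 is the ADP/ATP carrier of sperm mitochondria, Ldhc the lactate dehydrogenase of sperm, Pgk2 a phosphoglycerate kinase of spermatogenic cells encoded by an intronless gene, and Tex101 a surface glycoprotein of germ cells.

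The sequences of the promoters that could be read show how unevenly the covered CpGs are spread. Sequences are from RefSeq (GRCm38.p6, 250 bases before to 50 after the RefSeq start) on the strand of the gene, and capitals mark the CpGs covered in all 6 libraries. In Slc25a31 (chr3:40708621-40708920, plus strand) 17 of 22 CpGs were covered, which is why its promoter gives the most detailed reading.
Slc25a31: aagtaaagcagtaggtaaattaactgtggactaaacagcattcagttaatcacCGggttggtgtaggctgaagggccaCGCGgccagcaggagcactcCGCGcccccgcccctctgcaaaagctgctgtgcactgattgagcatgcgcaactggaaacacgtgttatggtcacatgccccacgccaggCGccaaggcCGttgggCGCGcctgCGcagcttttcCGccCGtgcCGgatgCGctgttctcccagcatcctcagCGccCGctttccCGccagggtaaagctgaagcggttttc
Tuba3a (chr6:125286032-125286331, minus strand) and Tuba3b (chr6:145615713-145616012, plus strand) are shown because their levels were alike although only 60.9% of 335 aligned columns of these promoters were identical. Coverage reached 4 of 12 CpGs in Tuba3a and 4 of 16 in Tuba3b.
Tuba3a: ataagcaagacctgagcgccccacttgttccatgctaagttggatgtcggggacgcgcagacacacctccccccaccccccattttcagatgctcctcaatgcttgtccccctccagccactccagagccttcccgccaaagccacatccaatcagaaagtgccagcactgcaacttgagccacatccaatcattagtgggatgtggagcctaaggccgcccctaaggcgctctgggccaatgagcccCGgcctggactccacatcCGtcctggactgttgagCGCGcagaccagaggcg
Tuba3b: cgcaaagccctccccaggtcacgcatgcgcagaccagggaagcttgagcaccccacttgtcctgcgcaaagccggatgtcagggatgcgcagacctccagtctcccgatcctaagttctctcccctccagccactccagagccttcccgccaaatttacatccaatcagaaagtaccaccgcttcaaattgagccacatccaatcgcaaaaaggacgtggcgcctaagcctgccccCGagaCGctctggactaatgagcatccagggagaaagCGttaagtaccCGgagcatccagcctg
In Tex101 (chr7:24672001-24672300, minus strand) 11 of 19 CpGs were covered, and the RefSeq start is that of the inner transcript, not of the longest one.
Tex101: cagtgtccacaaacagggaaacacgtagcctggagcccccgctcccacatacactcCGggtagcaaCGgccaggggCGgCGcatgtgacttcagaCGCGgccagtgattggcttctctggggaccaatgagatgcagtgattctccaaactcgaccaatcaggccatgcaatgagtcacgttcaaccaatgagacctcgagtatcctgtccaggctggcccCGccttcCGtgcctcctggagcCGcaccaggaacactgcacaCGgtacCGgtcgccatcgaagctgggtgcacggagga
For Dazl the stretch with the steepest change in methylation is shown, in the first intron (GRCm38 chr17:50293071-50293245, minus strand), and its 12 covered CpGs run from 394 to 564 bp downstream of the 5' end.
Dazl: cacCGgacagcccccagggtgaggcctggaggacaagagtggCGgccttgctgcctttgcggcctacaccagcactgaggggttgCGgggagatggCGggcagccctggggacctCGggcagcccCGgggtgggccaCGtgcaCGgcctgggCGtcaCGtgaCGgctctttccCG

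A motif search over 32851 RefSeq promoters of this length, on both strands, found the E2F-like letters TCCCGC in 19.98% of them and in 3 of the 8 genes (Slc25a31, Tuba3a and Tuba3b). In Tuba3a and Tuba3b the match began 119 and 106 bases before the RefSeq start, and in Slc25a31 it began at base 21 after it. The RefSeq start of Tuba3b lies downstream of the 5' end from which its distances are given below. Its match is therefore downstream of that 5' end, and its covered cytosines at 193 and 198 bp lie before the RefSeq start. The E-box letters CACGTG were in 7.15% of promoters and in those of Brdt and Slc25a31. CCGG, the MspI site, was in 52.78% of promoters and in those of all the genes except Ldhc and Pgk2. These matches are letters in a window, and binding was not measured.

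The libraries held between 18238737 and 31019082 reads over the listed cytosines, with a median coverage of 13 to 17 reads. Mean CpG methylation was 19.6%, 19.4% and 15.9% in the cKO libraries. It was 15.6%, 39.4% and 38.9% in the libraries labelled control replicates 1, 2 and 3. The library labelled control replicate 1 thus had the methylation level of the cKO libraries and stood apart from its own group. No library labelled cKO had the level of control replicates 2 and 3. Whether the label of control replicate 1 was right cannot be settled from these files, and a mean over all 3 controls has to be read with that in mind. The level of each promoter and body is therefore given with all 3 controls and with control replicates 2 and 3, and shorter stretches with control replicate 1 apart. The labels do not tie libraries to litters, so a p-value measures only the spread between these libraries. The mean differed by -13.0 percentage points with all controls (two-sided exact permutation test, p = 0.4, smallest possible 0.1) and by -20.9 points without control replicate 1 (p = 0.2, the smallest possible).

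The promoter of Slc25a31 kept most of its methylation. Its gene lies at chr3:40708855-40726096 on the plus strand, and its 38 covered cytosines spanned the upstream sequence, exon 1 and the start of intron 1. Methylation was 82.4%, 78.0% and 79.8% in the cKO libraries, against 75.3%, 93.9% and 91.5% in control replicates 1, 2 and 3, from at least 554 reads per library. All cKO libraries lay below control replicates 2 and 3, and control replicate 1 lay below all of the cKO libraries, so the groups overlapped. The cKO mean was 80.1% ± 2.18 (SD, n = 3) and the control mean 86.9% ± 10.2 (SD, n = 3), a difference of -6.84 points. Against control replicates 2 and 3 (92.7% ± 1.71, SD, n = 2) the difference was -12.7 points, and the cKO kept 86.4% of that level.

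Tuba3b, at chr6:145615757-145621479 on the plus strand, had 17 covered promoter cytosines, all downstream of the 5' end. Methylation was 65.4%, 55.6% and 52.4% in the cKO libraries, against 52.3%, 92.8% and 92.7% in control replicates 1, 2 and 3, from at least 240 reads per library. Control replicate 1 was the lowest of all 6 libraries, and the cKO libraries were far below the other controls. The cKO mean was 57.8% ± 6.77 (SD, n = 3) and the control mean 79.3% ± 23.3 (SD, n = 3), a difference of -21.5 points. Without control replicate 1 the control mean was 92.7% ± 0.079 (SD, n = 2), the difference -34.9 points and the share kept 62.3%. Slc25a31 and Tuba3b thus had nearly the same promoter level in control replicates 2 and 3 and were about 22 points apart in the cKO libraries.

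Tuba3a, on the minus strand of the same chromosome at chr6:125278274-125286042, gave levels close to those of Tuba3b. Its 9 promoter cytosines were at 65.1%, 56.0% and 56.1% in the cKO libraries, against 51.8%, 90.5% and 91.6% in control replicates 1, 2 and 3, from at least 107 reads per library. As in Tuba3b, cKO replicate 1 was the highest of the cKO libraries and control replicate 1 the lowest of all. The cKO mean was 59.1% ± 5.21 and the control mean 77.9% ± 22.6 (SD, n = 3 each), a difference of -18.8 points. It was -31.9 points against control replicates 2 and 3 (91.0% ± 0.804, SD, n = 2), of which 64.9% was kept. None of the promoter cytosines of either tubulin gene shared a surrounding stretch of 36 unconverted bases with the other copy. Bisulfite-converted letters and the rest of the genome were not searched, so the assignment of these reads to each gene was not settled.

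Dazl, at chr17:50279395-50293636 on the minus strand, also lost little. Its 18 promoter cytosines, all downstream of the 5' end, were at 74.4%, 74.4% and 73.5% in the cKO libraries, against 72.8%, 85.3% and 85.6% in control replicates 1, 2 and 3, from at least 164 reads per library. The cKO libraries differed from each other by less than 1 point, and only control replicate 1 of the controls was near them. The cKO mean was 74.1% ± 0.505 and the control mean 81.3% ± 7.31 (SD, n = 3 each), a difference of -7.15 points. Against control replicates 2 and 3 (85.5% ± 0.216, SD, n = 2) it was -11.4 points, with 86.7% kept.

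**Figure D1:**
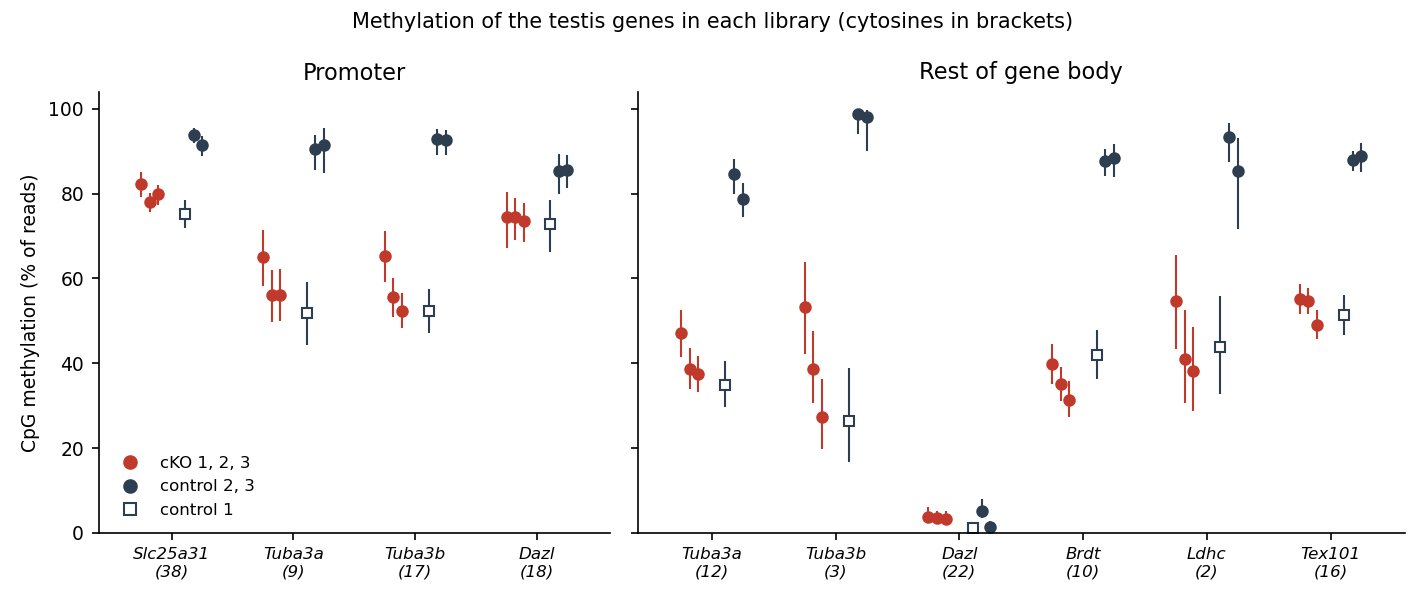
CpG methylation of each testis gene in each library, in percent of reads over its covered cytosines, for promoters (left) and the rest of the gene bodies (right). Points are libraries, cKO left of control, the open square is control replicate 1 and bars are 95% Wilson intervals. Control replicate 1 sits within or near the cKO libraries at each gene, and Dazl is near 0 in its body.

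The promoters of the other 4 genes gave no comparison. Brdt, at chr5:107331159-107387058 on the plus strand, has 49 CpGs and 5 MspI sites in its promoter, but no cytosine there was covered in all libraries and 2 were listed in any. The promoters of Ldhc (chr7:46861203-46878142, plus strand), Pgk2 (chr17:40207015-40208640, minus strand) and Tex101 (chr7:24668007-24676675, minus strand) hold no MspI site. They are also poorer in CpGs, with 21, 11 and 22 in the promoter window, against 65 in Slc25a31 and 84 in Dazl. Pgk2 had no listed cytosine in promoter or body in any library.

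The bodies lost more than the promoters in both tubulin genes. In Tuba3a the 12 body cytosines were at 47.0%, 38.7% and 37.4% in the cKO libraries, against 34.9%, 84.5% and 78.8% in control replicates 1, 2 and 3. The difference was -25.1 points with all controls and -40.6 points without control replicate 1, with 50.2% kept. In Tuba3b, with only 3 body cytosines and at least 53 reads per library, the levels were 53.2%, 38.7% and 27.3% in the cKO libraries, against 26.3%, 98.9% and 98.1% in the controls. The cKO libraries spread over 26 points here, and the difference was -34.7 points with all controls and -58.8 points without control replicate 1. The coding sequences of Tuba3a and Tuba3b are 97.0% identical, and 4 of 12 and 2 of 3 body cytosines lie in 36-base stretches present in both. The authors accepted perfectly matching reads, and a read lying wholly within such a stretch would match both genes. Whether the reads reached beyond these stretches was not tested, so the body values of the 2 tubulin genes are uncertain.

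The body of Brdt had the largest difference with all 3 controls, and the largest after that of Tuba3b when control replicate 1 was left out. Its 10 intronic cytosines were at 39.8%, 35% and 31.4% in the cKO libraries, against 42.0%, 87.8% and 88.3% in control replicates 1, 2 and 3, from at least 257 reads per library. This was the only body of these genes in which all cKO libraries lay below all controls, control replicate 1 included, as in 8.62% of all bodies tested, although that library was close to cKO replicate 1. The cKO mean was 35.4% ± 4.17 and the control mean 72.7% ± 26.6 (SD, n = 3 each), a difference of -37.3 points. It was -52.6 points when control replicate 1 was left out, with 40.2% kept. The cytosines nearest to the promoter, 507 to 708 bp downstream of the 5' end and so just outside the promoter window, averaged 37.9% in the cKO libraries against 90.8% in control replicates 2 and 3 and 45.7% in control replicate 1. Those further inside the gene, 11400 to 37173 bp from the 5' end, averaged 27.9% in the cKO libraries against 81.1% in control replicates 2 and 3 and 32.5% in control replicate 1.

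Ldhc had 2 covered cytosines, 15429 and 15472 bp into the gene, too few for the minimum of 3 used for a gene body. They were at 54.7%, 41.1% and 38.2% in the cKO libraries, against 43.9%, 93.3% and 85.4% in control replicates 1, 2 and 3, from at least 41 reads per library. The cKO libraries lay below control replicates 2 and 3, and control replicate 1 lay among them. The difference was -29.6 points with all controls and -44.7 points without control replicate 1.

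Tex101 has no covered cytosine near its longest-transcript 5' end, and all its 16 covered cytosines surround the 5' end of its inner transcript Tex101-201, 4625 bp downstream. They were at 55.1%, 54.8% and 49.1% in the cKO libraries, against 51.3%, 87.9% and 89.0% in control replicates 1, 2 and 3, from at least 309 reads per library. Control replicate 1 fell inside the cKO range, and the other controls were far above it. The mean was 53.0% ± 3.37 in cKO and 76.1% ± 21.5 in control libraries (SD, n = 3 each), a difference of -23.1 points. Without control replicate 1 the control mean was 88.4% ± 0.782 (SD, n = 2), the difference -35.4 points and the share kept 59.9%.

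Within Tex101 the loss grew with distance into the gene. The 11 cytosines between 4431 and 4645 bp, around the inner 5' end, were at 74.9%, 72.6% and 65.3% in the cKO libraries, against 70.6%, 90.1% and 89.6% in control replicates 1, 2 and 3. The 5 cytosines between 4722 and 5111 bp were at 42.6%, 31.4% and 33.0% in the cKO libraries, against 33.3%, 86.0% and 88.2% in the controls. The levels of the 2 stretches were alike in control replicates 2 and 3 but not in control replicate 1. The cKO kept 79.0% of the level of control replicates 2 and 3 in the first stretch and 40.9% in the second. These stretches, and those given for the other genes, were set after their values had been seen.

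The body of Dazl was unmethylated in both groups. Its 22 body cytosines, all within 810 bp of the 5' end, were at 3.84%, 3.37% and 3.33% in the cKO libraries, against 1.03%, 5.22% and 1.31% in control replicates 1, 2 and 3. The groups overlapped, and the difference was 0.988 points with all controls and 0.243 points without control replicate 1. The boundary lay inside the first intron. The 14 cytosines between 92 and 250 bp averaged 78.6% in the cKO libraries against 91.1% in control replicates 2 and 3 and 77.5% in control replicate 1. The 4 cytosines between 394 and 488 bp averaged 62.4% in the cKO libraries against 66.1% in control replicates 2 and 3 and 56.8% in control replicate 1. The next 3, between 507 and 517 bp, averaged 19.9% in the cKO libraries against 16.2% in control replicates 2 and 3 and 11.4% in control replicate 1, only 19 bp after the last of the methylated group. The single cytosines from 528 bp on were low but not all near 0, since that at 534 bp averaged 8.35% in the cKO libraries against 23.1% in control replicates 2 and 3. From 528 to 810 bp the 19 cytosines averaged 1.66% in the cKO libraries and 1.66% in control replicates 2 and 3, and control replicate 1 had 0 methylated of 352 reads there (Wilson 95% upper bound 1.08%). This unmethylated stretch includes the 5' end of the transcript Dazl-204, 744 bp downstream of the gene's own. A promoter drawn around Dazl-204 held the same 40 cytosines, 18 of the gene's own promoter and 22 of its body. It averaged 26.4% in cKO against 31.9% in all controls and 35.4% in control replicates 2 and 3. Control replicate 1, at 25.1%, lay inside the cKO range of 23.8% to 28.6%. This mean mixes the methylated and the unmethylated stretch and is not the level at the Dazl-204 5' end.

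**Figure D2:**
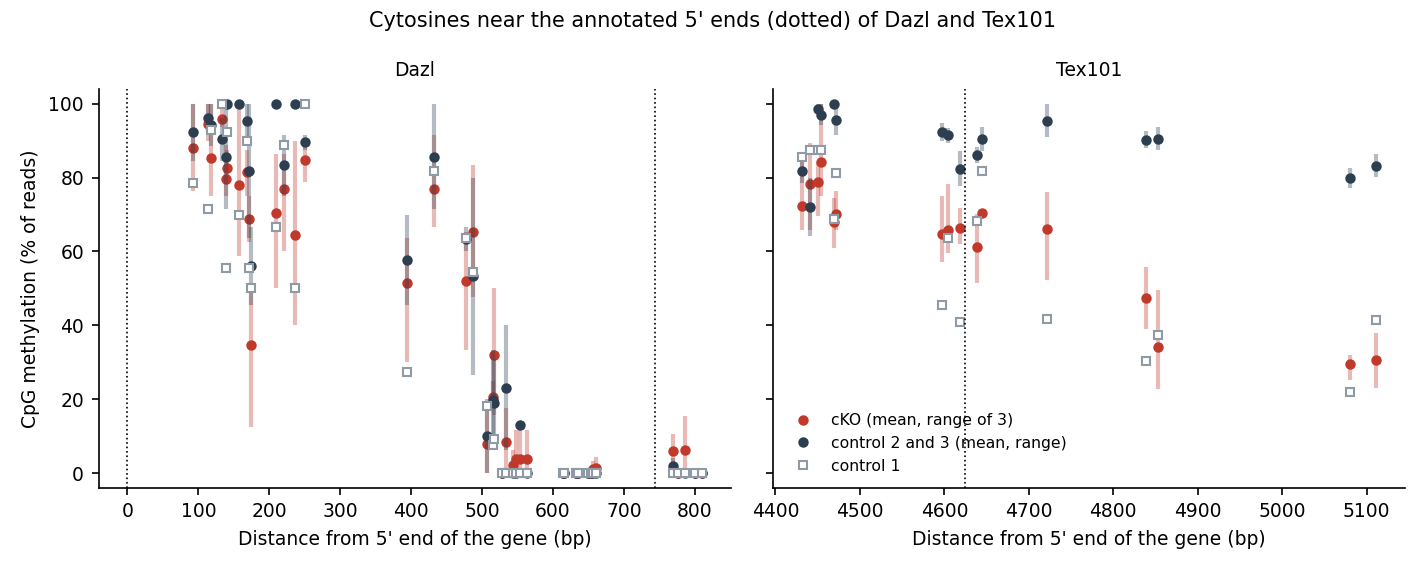
Methylation of each covered cytosine of Dazl and Tex101, in percent of reads, by distance in bp from the 5' end of the gene. Circles are means and bars ranges of the 3 cKO libraries and of control replicates 2 and 3, squares are control replicate 1 and dotted lines are annotated 5' ends. In Dazl most cytosines from 528 bp on are near 0 in both groups, and in Tex101 the cKO means and control replicate 1 fall with distance while control replicates 2 and 3 stay high.

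The loss within Slc25a31 was uneven as well. The 10 coding cytosines of exon 1 between 217 and 266 bp, with 11 to 14 CpGs within 50 bp of each, were at 85.9%, 82.9% and 89.7% in the cKO libraries, against 77.7%, 95.3% and 89.3% in control replicates 1, 2 and 3. Here cKO replicate 3 was above control replicate 3, so the groups overlapped even without control replicate 1, and 93.3% was kept. The 13 cytosines between -45 and +39 bp were at 83.3%, 81.3% and 80.2% in the cKO libraries, against 88.3%, 94.4% and 97.9% in the controls. That was the only stretch of Slc25a31 in which all cKO libraries lay below all controls, control replicate 1 included. The 6 cytosines of intron 1, between 383 and 473 bp, were at 74.6%, 72.2% and 58.7% in the cKO libraries, against 48.2%, 93.8% and 82.7% in the controls, and 77.6% was kept. The lowest single cytosine, at 473 bp, averaged 26.4% in the cKO libraries against 78.1% in control replicates 2 and 3, a difference of -51.7 points. Over the 38 cytosines the difference from control replicates 2 and 3 ran from -51.7 to 8.05 points with a median of -11.9, and all cKO libraries lay below both of these controls at 15. Among all 215504 cytosines at 75% or more in control replicates 2 and 3, this held at 94.4%. That share was not matched for CpG density or read depth. Of the 215504, 75155 had 1 to 2 CpGs within 50 bp and 107326 had 3 to 5, against a mean of 9.18 over the 38 cytosines of Slc25a31.

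Tuba3b varied more from cytosine to cytosine. The 11 cytosines of exon 1, between 193 and 302 bp, were at 66.5%, 50.4% and 52.6% in the cKO libraries, against 50.9%, 94.0% and 94.4% in control replicates 1, 2 and 3. The 6 cytosines of intron 1, between 346 and 458 bp, were at 60.0%, 75.3% and 51.4% in the cKO libraries, against 58.7%, 87.5% and 87.1% in the controls. The intron rested on at least 40 reads per library and exon 1 on at least 200. Single cytosines ran from 16.8% to 88.7% in the cKO mean, and their difference from control replicates 2 and 3 from -72.7 to 4.29 points with a median of -28.7. All cKO libraries lay below both of these controls at 8 of the 17 cytosines, beside the same 94.4% of all highly methylated cytosines. That share was again not matched for CpG density or read depth. The cytosines of Tuba3b without this order had only 6 or 7 reads in the library that covered them least. In Tuba3a the 4 cytosines just upstream of the 5' end, between -41 and -4 bp, averaged 71.8% in the cKO libraries against 95.4% in control replicates 2 and 3 and 55.8% in control replicate 1. The 4 intronic ones between 111 and 152 bp averaged 49.8% in the cKO libraries against 87.7% in control replicates 2 and 3 and 39.2% in control replicate 1.

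**Figure D3:**
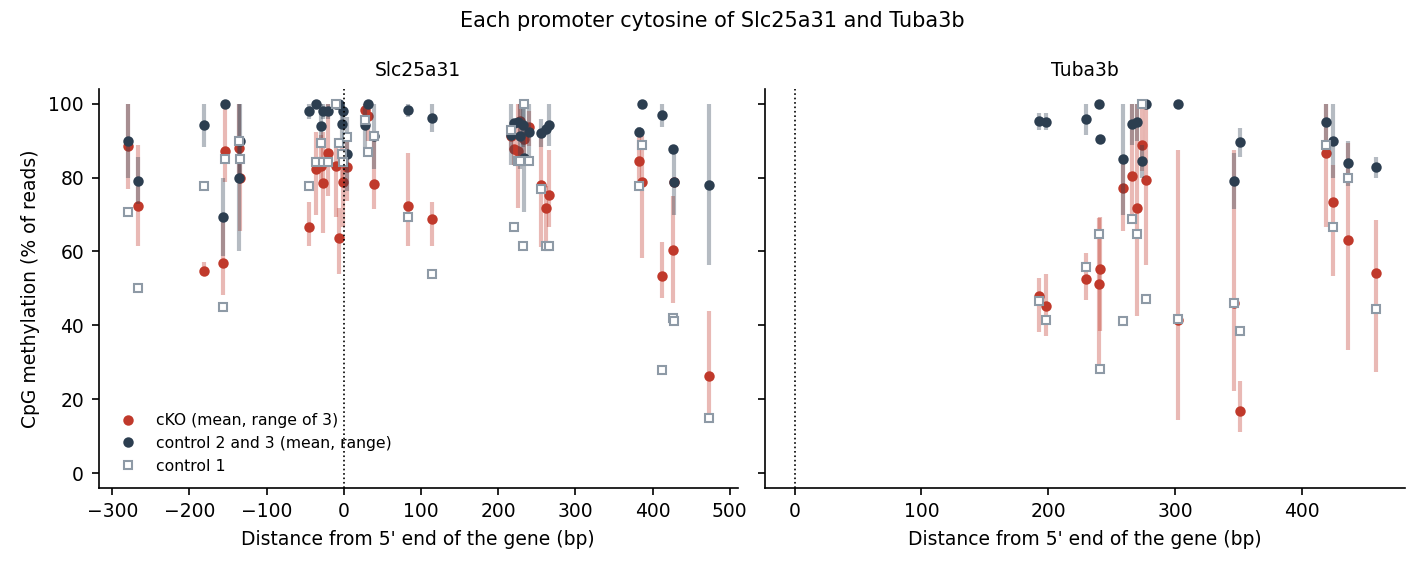
Methylation of each covered promoter cytosine of Slc25a31 (left) and Tuba3b (right), in percent of reads, by distance in bp from the 5' end (dotted). Circles are means and bars ranges of the 3 cKO libraries and of control replicates 2 and 3, and squares are control replicate 1. The cKO means of Slc25a31 are above 60% at most cytosines and lowest (26.4%) at 473 bp, while those of Tuba3b run from 16.8% to 88.7%.

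In 6 CpGs both strands were covered, and the 2 readings come from different reads of the same site. In Slc25a31 the CpG next to the 5' end (-2 bp) averaged 86.5% on the plus and 78.7% on the minus strand in the cKO libraries, against 94.4% and 98.0% in control replicates 2 and 3. Control replicate 1 had 86.4% and 84.2% there. The CpG of Tuba3b at 240 bp averaged 51.1% and 55.2% in the cKO libraries, against 100% and 90.5% in control replicates 2 and 3, and control replicate 1 had 64.7% and 28.2%. The largest gap between strands in the cKO mean was at 427 bp of Slc25a31, with 60.4% on the plus and 78.7% on the minus strand, from at least 10 reads per library and strand. In the body of Tuba3a the strands differed by 0.49 points, at 63.8% and 64.3%.

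The share of methylation kept went with the CpG density around a cytosine. Among the 113 cytosines of these genes that were at 75% or more in control replicates 2 and 3, the share kept in cKO was correlated with the number of CpGs within 50 bp (Pearson r = 0.619, Spearman rho = 0.625). These are cytosines of 7 genes that share libraries and often reads, so the values describe them and carry no p. The 75% limit was set on control replicates 2 and 3 alone. The genes were also selected partly on the methylation kept, Slc25a31 for keeping it and Tuba3b for losing it. Their promoter cytosines had means of 9.18 and 6.88 CpGs within 50 bp, so the pooled values restate part of the selection. The 9 cytosines with 1 to 2 CpGs nearby averaged 38.2% in cKO against 88.9% in control replicates 2 and 3. The 36 with 6 to 8 averaged 69.2% against 92.9%, and the 13 with 12 or more averaged 84.0% against 93.9%. Within single genes Pearson's r was 0.741 over the 15 cytosines of Tex101, 0.426 over the 16 of Tuba3a, 0.331 over the 37 of Slc25a31, 0.297 over the 20 of Tuba3b and 0.288 over the 14 of Dazl. Over the 9 cytosines of Brdt it was 0.096, so the order did not hold in every gene.

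Cytosines all over the genome followed the same order at a lower level. Of all cytosines with 75% or more in control replicates 2 and 3, the 75155 with 1 to 2 CpGs nearby averaged 35.8% in cKO against 87.2% in these controls, close to the testis genes. The 28276 with 6 to 8 averaged 46.4% against 90.2%, and the 807 with 12 or more averaged 67.5% against 90.6%. At these densities the testis genes were higher than all cytosines in cKO. The genes had been selected partly for high levels in cKO, and the gap is a description. Control replicate 1 was at 65.0% and 84.4% in the testis genes at the same 2 densities, against 42.7% and 63.5% over all cytosines, close to the cKO libraries.

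**Figure D4:**
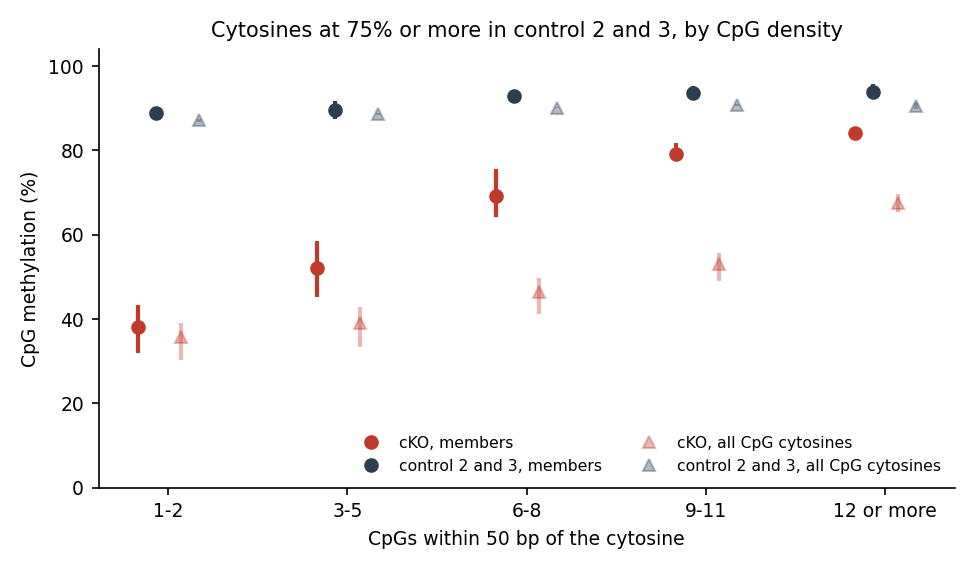
Mean methylation (%) of cytosines at 75% or more in control replicates 2 and 3, by the number of CpGs within 50 bp, for the testis genes (circles) and for all CpG cytosines (triangles), with cKO left of control. Bars are ranges over the 3 cKO libraries and over control replicates 2 and 3. The cKO level climbs with density in both sets and is higher in the testis genes from 3 CpGs upward.

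Across all genes, promoters and bodies were tested with a moderated quasi-binomial F test, and calls needed a q (Benjamini-Hochberg) under 0.01 together with group means that were 25 points or more apart. With all 6 libraries 0 of 11787 promoters and 0 of 13394 bodies were called (0% each), none of the 8 genes among them. At an unadjusted p under 0.05 there were 261 promoters and 2929 bodies, and limma on the logit scale also called 0 of each, with 1090 and 2874 at an unadjusted p under 0.05. A plain binomial test, which ignores the spread between libraries, called 372 promoters and 4803 bodies lower. Without control replicate 1, 95 promoters were called lower (0.806% of those tested) and 0 higher. Of the 4 testis gene promoters tested 1, that of Tuba3b, was called. It became 2, with that of Tuba3a, when the autosomes alone were tested (3.63% of promoters called) or q was allowed up to 0.05 (3.41%), settings chosen after seeing the data. Without control replicate 1 and over all chromosomes 7735 bodies (57.7%) were called lower, as were those of Brdt, Tuba3a, Tuba3b and Tex101, while that of Dazl was not. The same 4 were called on the autosomes alone (58.1% of bodies). The genes were chosen on this contrast, so nothing is read from these counts.

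Set beside other promoters, Slc25a31 and Dazl stood at the retaining end and the tubulin genes between them and the middle. Of 825 promoters with at least 25% methylation in control replicates 2 and 3, the median kept 41.9% in cKO (quartiles 35.2% and 52.3%). Dazl and Slc25a31 ranked at 25 and 26 from the most kept, Tuba3a at 94 and Tuba3b at 116. The fall of Tuba3b, -34.9 points, ranked at 469 from the largest, beside a median of -38.7 points, so that it was no larger than that of the typical promoter. By share kept with all 3 controls, Slc25a31, Dazl, Tuba3a and Tuba3b ranked at 26, 30, 96 and 114 of 751. Promoters rich in CpGs kept more. Among those at 75% or more in control replicates 2 and 3, the 23 with an observed over expected CpG ratio of 0.6 to 0.8 kept a median of 69.6% (quartiles 57.7% and 81.1%), and the 70 with a ratio of 0.4 to 0.6 kept 53.1% (quartiles 41.4% and 65.3%). Slc25a31 and Dazl, at ratios of 0.709 and 0.717, were above the upper quartile of the first class. Tuba3a and Tuba3b, at 0.437 and 0.417, lay within the quartiles of the second. Slc25a31 had been selected for the methylation it kept in these libraries and Tuba3b for its loss. The rank and quartile place of Slc25a31 therefore restate the selection. Tuba3b kept a larger share than the median promoter, so its rank does not reflect a large loss. All these places rest on values that the selection used and are only a description.

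**Figure D5:**
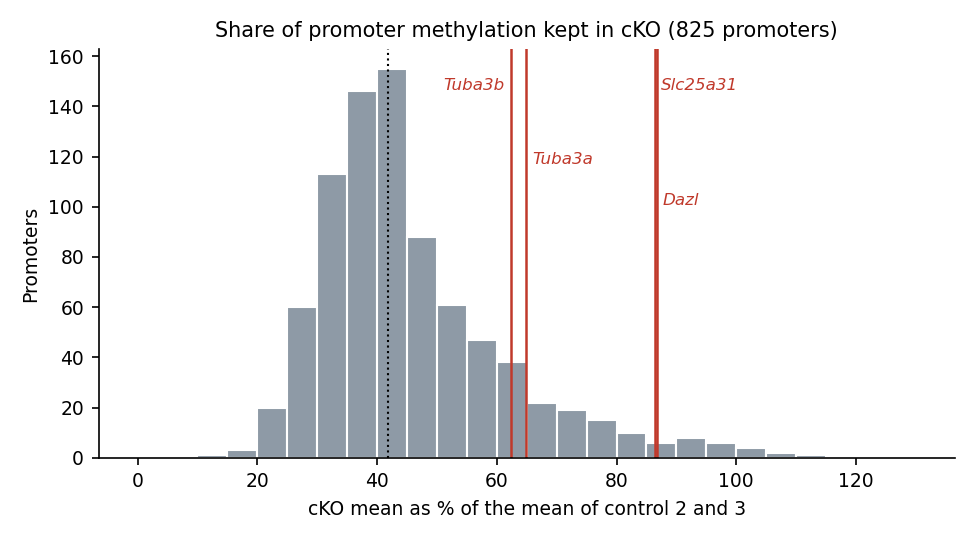
Number of promoters by the cKO mean as a percent of the mean of control replicates 2 and 3, for the 825 promoters with at least 25% methylation in these controls. Red lines are the 4 testis genes and the dotted line is the median (41.9%). Tuba3b and Tuba3a lie at 62.3% and 64.9%, and Slc25a31 and Dazl, whose lines nearly coincide, at 86.4% and 86.7%.

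The promoters with the most similar levels over the 6 libraries were sought among 10332 promoters with at least 5 cytosines and 50 reads per library. Likeness was the root mean square distance in percentage points over the 6 libraries. Nearest to Slc25a31 was a set of 8 cytosines shared by the promoters of Tex14 and Rad51c, at 3.24 points, followed by Naa11 at 4.94 points. Nearest to Tuba3b were Tuba3a at 1.87 points, Pet2 at 3.39 points and BC048507 at 3.72 points. The second copy of the testis tubulin was thus the closest match of the first. Their promoters shared no stretch of 36 unconverted bases at the covered cytosines, but converted letters were not compared.

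Among 48 other genes of the germline and testis, 26 promoters were measured and 20 had at least 25% methylation in control replicates 2 and 3. These 20 kept a median of 66.5%, with median levels of 56.6% in cKO against 84.7% in those controls, between Slc25a31 and Tuba3b in their share kept. Over all 26 the median level was 47.4% in cKO against 69.0% with all 3 controls. With all 6 libraries 0 of the 26 were called and 5 had an unadjusted p under 0.05 in the quasi-binomial test, beside 2.21% of all promoters. The comparison without control replicate 1 called 2 of them lower, beside 0.806% of all promoters. Most promoters had too little methylation to fall by 25 points. Of 11787 promoters 825 reached 25% in control replicates 2 and 3, and the 95 called lower were all among these. The shares over all promoters thus do not compare like with like, and no excess in this list is read from them. Piwil2, an Argonaute protein of the piRNA pathway, was at 37.5%, 49.5% and 40.4% in the cKO libraries, against 36.1%, 84.8% and 86.4% in control replicates 1, 2 and 3. Pet2 was at 58.5%, 54.5% and 51.3% in the cKO libraries, against 55.3%, 91.0% and 90.3% in the controls. Smc1b, the meiotic cohesin subunit and the uncalled promoter with the most reads, was partly methylated in every library, at 27.4%, 32.9% and 35% in the cKO libraries against 36.4%, 33.7% and 32.7% in the controls.

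Genes of sperm metabolism, tail and acrosome, which act later in the life of the sperm, were mostly unmethylated at their promoters. Of 45 listed, 21 were measured, with a median of 4.25% in cKO against 1.92% in all controls and 2.62% in control replicates 2 and 3, and 8 reached 25% in control replicates 2 and 3. With all 6 libraries 0 were called and 0 had an unadjusted p under 0.05 in the quasi-binomial test. In the comparison without control replicate 1 the promoter of Tssk1, a testis-specific serine kinase, was called lower, at 33.7%, 49.5% and 35.2% in the cKO libraries against 24.7%, 90.6% and 92.2% in control replicates 1, 2 and 3. Tssk6, of the same kinase family, was at 2.31%, 2.22% and 3.0% in the cKO libraries against 1.45%, 1.56% and 1.92% in the controls. Over all promoters tested the median was 1.30% in cKO and 0.669% in controls.

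The somatic relatives of the 8 genes, such as Tuba1a, Slc25a5 and Pgk1, were not methylated in this way. Of 13 listed, 9 promoters were measured, with means of 0.362% to 13.6% in cKO and 0% to 9.18% in controls. Genes of the E2F6, MGA and PRC1.6 repressors, which bind germline promoters in the soma, were unmethylated too, with 13 of 14 measured and a median of 1.16% in cKO against 0.488% in controls. Cbx3, with the most reads among them, was at 0.303%, 0.910% and 1.15% in the cKO libraries against 0.342%, 0.368% and 1.02% in the controls. In both lists 0 promoters were called in either comparison and 0 had an unadjusted p under 0.05 in the quasi-binomial test.

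Gene bodies of the lists differed in how much methylation they had to lose. Without control replicate 1, 20 of 30 bodies of the other germline and testis genes and 18 of 28 bodies of the sperm metabolism, tail and acrosome genes were called lower, beside 57.7% of all bodies tested. In these 2 lists the median difference was -38.1 and -40.3 points, against -32.0 points over all bodies. Over the 5 testis gene bodies tested it was -40.6 points. It was -4.29 points in the somatic relatives (2 of 11 bodies called) and -12.7 points in the repressor genes (4 of 12 called). Control replicates 2 and 3 had medians of 83.0% and 74.8% in the first 2 lists. The medians were 8.54% and 21.2% in the somatic relatives and the repressor genes. Among bodies at 25% or more in these controls, the germline and sperm lists kept a median of 48.9% and 41.3%. The somatic relatives kept 43.0% (3 bodies) and the repressor genes 38.1% (6 bodies), beside 41.1% over all bodies.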

How the data were processed

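Ox-RRBS libraries of 3 cKO and 3 control cortices were used. The authors aligned the reads to GRCm38 with Genomatix software, accepting perfect matches, and the submitters' processing notes name methylKit. For each cytosine the deposited files hold a read count (coverage) and the percent of these reads with C or T, not normalised between libraries. All measures were mapped to samples by the labels. Methylated reads were recovered from count and percent, and all came out whole within 0.006 percentage points.

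Gene models were GENCODE M21 on GRCm38, protein-coding genes, and the longest extent gave the 5' end. Reads were summed over the cytosines of a region covered by 6 or more reads in all libraries, and a feature needed 3 cytosines. Means ± SD were taken over libraries. The Wilson intervals (95%) cover counting error only, since PCR copies could not be told from separate molecules. The quasi-binomial dispersion was moderated across features as in limma (prior fitted at 5 to 95% methylation), with pandas 2.3.3, scipy 1.17.1 and numpy 2.4.6 under Python 3.11.15. It was checked against limma 3.58.1 in R 4.3.3 and tested on simulated data. The thresholds follow the study, which states no correction for the spread between embryos, so a plain binomial test was an alternative. Figures were drawn with matplotlib 3.10.9.

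The genes and the 4 lists were chosen with earlier results of these data known. From each list up to 3 promoters called lower with the largest difference were named, and the uncalled one with the most reads, 1 of which is not reported here. Gene bodies of the lists were only counted. For Slc25a31 and Tuba3b the 3 promoters nearest in level were named. Alternatives were a replicate left out, coverage of 10 or 20 reads, other promoter windows and 5' ends, cytosines weighted equally, 1 or 5 cytosines a feature, autosomes alone, a q under 0.05, each feature's own dispersion, a plain binomial test, limma and a replicate block. No pairing of the samples by replicate number was seen. Protein sequences were not used here.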

Additional observations from a re-analysis of the deposited data

How the results depend on the processing

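Control replicate 1 decides the calls. Leaving out each library in turn gave 0 to 95 promoters and 0 to 7735 bodies called lower, with the upper values in the comparison without control replicate 1, and 0 called higher throughout. The plain binomial test, which ignores the spread between libraries, called 372 promoters and 4803 bodies lower with all 6 libraries. Among alternatives chosen after seeing the data and also without control replicate 1, autosomes alone gave 418 promoters and 7617 bodies, and a q under 0.05 gave 402 promoters. Coverage of 10 or 20 reads, 1 or 5 cytosines a feature, other promoter windows, each feature's own dispersion, limma and autosomes alone left 0 called with all 6 libraries. The difference in mean CpG methylation ran from -20.9 to -8.99 points when a library was left out.

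With the replicate number as a block, 0 promoters and 0 bodies were called. Deviations of same-numbered libraries from their group means correlated at -0.015, 0.080 and -0.084 over 751 promoters, so no pairing by number was seen. The control means include control replicate 1, and a shared litter or preparation was not tested.

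Of the differences of the testis genes, all 60 values with a library left out and all 35 under other settings kept their sign and stayed within 1 SD of the value given, but that SD includes control replicate 1 and hides large moves. Without control replicate 1 every one of these differences but that of the Brdt body moved by over 1.5 times, to the values in the report. At 20 reads the Tuba3a promoter moved to -8.06 points, but this is the value of the 1 cytosine left, at 347 bp. Without control replicate 2 the differences of the Slc25a31 promoter and the Tuba3a and Tuba3b bodies became -3.32, -15.8 and -22.5 points, and without control replicate 3 those of the Slc25a31 and Tuba3a promoters and the Tuba3b body became -4.53, -12 and -22.9 points. The Dazl body, near 0 throughout, ran from 0.243 to 2.34 points over the libraries left out. Depth limits Ldhc (2 cytosines) and the body of Tuba3b (3 cytosines). The promoters of Brdt, Ldhc, Pgk2 and Tex101 were not read.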

Other observations

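Some cytosines of these genes were listed in only some libraries and entered no comparison. In exon 1 of Dazl, 8 cytosines between 15 and 63 bp were listed in all libraries but control replicate 1, at 92.1%, 87.5% and 88.0% in the cKO libraries against 88.2% and 90.0% in control replicates 2 and 3. These lay just outside the coverage rule, and the cytosines just inside it, from 92 bp onward, are among those given above. Upstream of Dazl, 6 cytosines between -602 and -514 bp were at 27.5% in cKO replicate 3, the only cKO library that listed them, against 63.8%, 69.1% and 84.9% in control replicates 1, 2 and 3. That stretch rested on 53 to 69 reads per library.

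In Tuba3a, 6 cytosines between 34 and 62 bp were at 84.4% and 75% in cKO replicates 2 and 3, against 56.7%, 90.7% and 94.8% in control replicates 1, 2 and 3, the first of these over 5 cytosines. In the first part of Ldhc, up to 6 cytosines between 4275 and 4686 bp were at 23.3%, 14.3% and 38.9% in the cKO libraries, against 58.3%, 94.0% and 97.2% in the controls, from 24 to 72 reads per library. Control replicate 1 listed only 2 of these, at 4275 and 4296 bp, and cKO replicates 1 and 2 listed only the other 4. The values of these libraries are therefore not of the same sites. Near the end of Brdt, up to 5 cytosines between 46643 and 46879 bp were at 35.1%, 19% and 7.14% in the cKO libraries, against 33.3%, 85.1% and 92.5% in the controls. The value of cKO replicate 3 rested on 1 cytosine with 14 reads, which control replicate 1 did not list.

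The promoters of Slc25a5 and Pgk1, somatic relatives of Slc25a31 and Pgk2 on chromosome X, varied between libraries of the same group. Slc25a5 was at 22.7%, 2.49% and 15.5% in the cKO libraries, against 0%, 27.5% and 0% in control replicates 1, 2 and 3. Pgk1 was at 8.42%, 1.05% and 12% in the cKO libraries, against 0%, 22.1% and 0% in the controls. The libraries had the same order in both genes except for cKO replicates 1 and 3.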
